A study of Mus musculus with 22 samples.

Results

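The Gadd45 family comprised 4 genes here, *Gadd45a*, *Gadd45b*, *Gadd45g* and *Gadd45gip1*, chosen by symbol as the rows of the count table whose Ensembl identifiers carry these GENCODE names. They are 4 of 53379 genes counted, and all 4 were among the 40714 genes that passed the filter on low counts. The libraries came from left (contralateral) hippocampi of adult male C57/BL6N mice, obtained at 8 weeks of age and housed for another 4 weeks, and taken 24 h after an injection above the right hippocampus. The kainic acid group received 70 nl of 20 mM kainate, an agonist of glutamate receptors that triggers status epilepticus, and only mice that then had convulsive seizures were kept. The sham group received 0.9% NaCl. Both groups shared medetomidine and ketamine anesthesia, its reversal with atipamezole, and buprenorphine. Each treatment had 8 mice in 3 pools, 1 of 4 mice and the others of 2 mice, and nuclei of each pool were sorted into NeuN+ nuclei, called neurons, and NeuN– nuclei, called glia. The mRNA libraries numbered 2 for sham glia and 3 for each of the other groups, so every error and p-value below rests on 2 or 3 pools a group.

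Gadd45 proteins are small nuclear stress sensors without known enzyme activity of their own. Gadd45a, Gadd45b and Gadd45g bind and activate the kinase Map3k4, which leads to p38 and JNK, and also bind the cell cycle inhibitor encoded by *Cdkn1a*, Pcna, and Cdk1 with cyclin B1. *Gadd45a* is a classic p53 target, *Gadd45b* a target of NF-kappaB and an activity-induced gene of hippocampal neurons linked to demethylation of *Bdnf* and *Fgf1* promoters, and *Gadd45g* is induced by cytokines and differentiation signals. *Gadd45gip1* is related by binding, not by descent: its product, Crif1, binds Gadd45 proteins and is part of the large subunit of the mitochondrial ribosome.

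In mm10, *Gadd45a* (ENSMUSG00000036390) lies on chromosome 6 from 67035096 to 67037457 on the minus strand, *Gadd45b* (ENSMUSG00000015312) on chromosome 10 from 80930073 to 80932204, *Gadd45g* (ENSMUSG00000021453) on chromosome 13 from 51846678 to 51848468, and *Gadd45gip1* (ENSMUSG00000033751) on chromosome 8 from 84831522 to 84835482, the last 3 on the plus strand. All are protein-coding genes. *Gadd45b* and *Gadd45g* overlap no other annotated gene. *Gadd45a* shares 337 exon bases with the noncoding *E230016M11Rik* on the opposite strand. No use of strand in counting is stated in the sources used here, so reads in this stretch cannot be told apart. *E230016M11Rik* did not pass the test between kainate and sham, with a log2 fold change of 0.16 ± 0.35 (SE) in neurons and 0.21 ± 0.39 in glia, each at FDR 1 (edgeR).

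Promoter windows were held for 3 of the 4 genes and are shown because *Gadd45b* and *Gadd45g* were the members upregulated together. Each window runs 5′ to 3′ on the gene's strand, from 250 bases before the RefSeq start to 50 bases after it (GRCm38.p6). *Gadd45a* is chr6:67037358-67037657 on the minus strand, *Gadd45b* is chr10:80929841-80930140 on the plus strand, and *Gadd45g* is chr13:51846425-51846724 on the plus strand. Capitals mark CACGTG (an E-box), TATAAA, and a loose NF-kappaB-like pattern (3 G and 2 C with any 5 bases between) on either strand.
Gadd45a: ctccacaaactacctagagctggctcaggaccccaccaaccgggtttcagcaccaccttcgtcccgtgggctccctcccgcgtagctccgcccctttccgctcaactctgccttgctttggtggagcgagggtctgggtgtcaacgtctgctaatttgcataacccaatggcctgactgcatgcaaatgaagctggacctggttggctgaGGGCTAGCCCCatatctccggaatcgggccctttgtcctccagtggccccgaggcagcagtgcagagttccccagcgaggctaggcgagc
Gadd45b: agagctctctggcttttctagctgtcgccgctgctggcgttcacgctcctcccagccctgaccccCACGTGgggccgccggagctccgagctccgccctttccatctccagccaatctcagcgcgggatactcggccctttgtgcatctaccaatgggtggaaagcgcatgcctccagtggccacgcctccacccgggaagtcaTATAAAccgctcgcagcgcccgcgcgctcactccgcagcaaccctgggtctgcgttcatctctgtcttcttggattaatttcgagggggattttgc
Gadd45g: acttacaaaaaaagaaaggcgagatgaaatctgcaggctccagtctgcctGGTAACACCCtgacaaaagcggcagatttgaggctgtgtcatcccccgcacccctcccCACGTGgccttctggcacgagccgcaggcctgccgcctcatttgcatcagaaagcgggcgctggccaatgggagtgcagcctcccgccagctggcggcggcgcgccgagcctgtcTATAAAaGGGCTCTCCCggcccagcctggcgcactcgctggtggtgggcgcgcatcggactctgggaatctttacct
The *Gadd45b* and *Gadd45g* windows each held 1 E-box, 185 and 142 bases before the start, and 1 TATAAA, 46 and 27 bases before it. The *Gadd45a* window held neither. Among all 32851 promoter windows, 7.15% held CACGTG and 13.6% held TATAAA. These 2 patterns were searched after the windows had been read. The NF-kappaB-like pattern occurred in 2 positions in *Gadd45a*, which overlap, in 2 positions in *Gadd45g* and in none in *Gadd45b*, and 50.8% of all windows held it. TGANTCA (AP-1), TGACGTCA (CRE) and the CArG box were in none of the 3 windows, and in 7.81%, 1.79% and 1.63% of all windows. *Gadd45a*, *Gadd45b* and *Gadd45g* had 14, 24 and 21 CpGs in these windows, against a median of 7.

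Library totals ran from 12058875 to 45428465 counts. The sorted fractions matched their labels. The summed level of 6 neuronal markers was 2835 to 6646 CPM (counts scaled by the TMM method to a common total) in the NeuN+ libraries and 465 to 745 in the NeuN– libraries. The summed level of 23 markers of astrocytes, microglia, oligodendrocytes and their precursors was 546 to 998 in NeuN+ and 6388 to 49539 in NeuN– libraries. NeuN– nuclei also held endothelial markers at a sum of 17.3 to 33.3 CPM and pericyte markers at 37.9 to 71.1. No marker was at 0 in any library. In bulk nuclei, more RNA per cell and more cells of a type cannot be told apart.

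*Gadd45b* showed the widest range of the family. It was at 17.3, 5.97 and 8.83 CPM in sham neurons of replicates 1, 2 and 3 and at 74.1, 39.2 and 70.1 in kainate neurons. In glia it was at 9.33 and 4.12 CPM in sham replicates 1 and 3 and at 525, 129 and 118 in kainate replicates 1, 2 and 3. In both cell types the lowest kainate value exceeded the highest sham value, and kainate glia replicate 1 stood far above the other 2 kainate glia libraries. The counts behind these levels ran from 83 reads, in sham glia replicate 3, to 8374 reads, in kainate glia replicate 1.

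*Gadd45g* was at 26.3, 10.1 and 14.8 CPM in sham neurons and at 75.3, 65.9 and 108 in kainate neurons. In glia it was at 14.6 and 6.74 CPM after saline and at 144, 83.5 and 61.6 after kainate. Here too the kainate and sham libraries of a cell type did not overlap, and the kainate levels of neurons and glia did. *Gadd45a* behaved otherwise. It was at 13.0, 7.90 and 7.03 CPM in sham neurons and at 11.1, 13.4 and 10.5 in kainate neurons, which overlap. In glia it was at 11.6 and 4.81 CPM after saline and at 37.4, 24.3 and 20.1 after kainate, so that the glial groups were apart.

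*Gadd45gip1* overlapped between treatments in both cell types. It was at 20.6, 7.72 and 8.96 CPM in sham neurons and at 18.0, 13.0 and 10.3 in kainate neurons. In glia it was at 13.1 and 3.77 CPM after saline and at 11.8, 7.33 and 5.25 after kainate. Replicate 1 was the highest sham library for all 4 genes in both cell types.

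**Figure D1:**
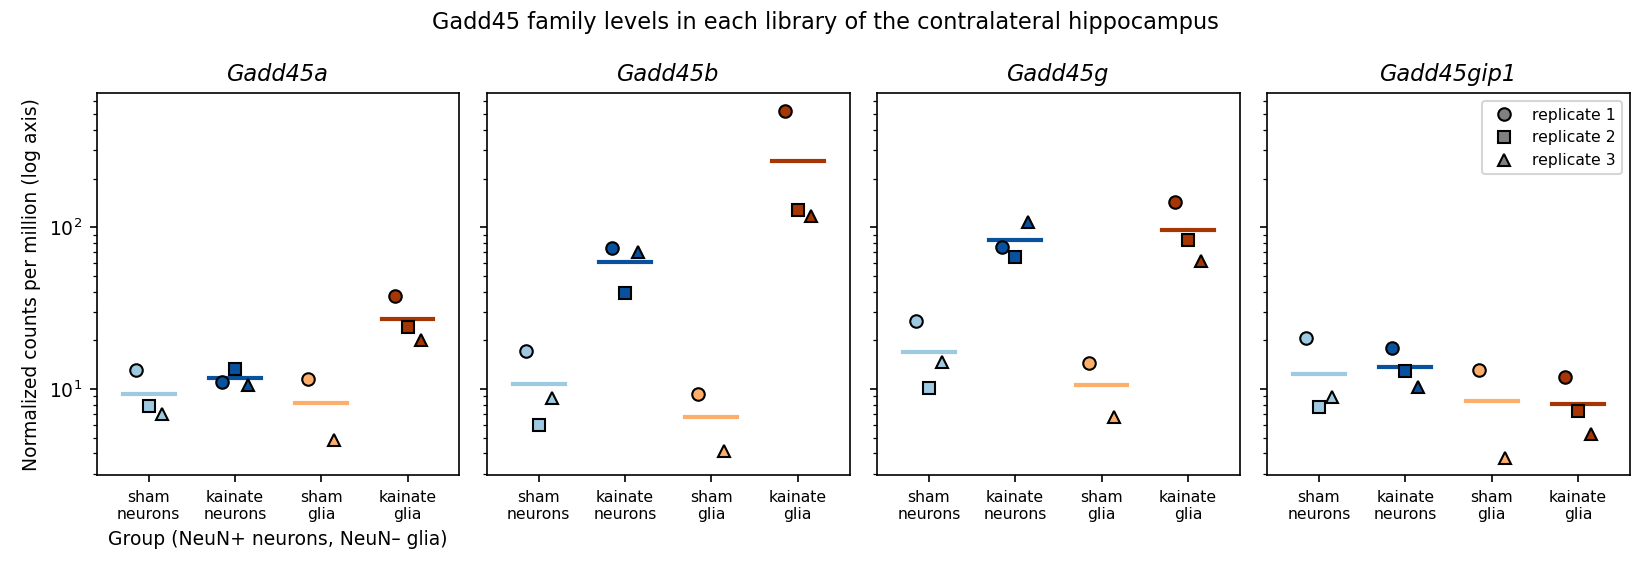
Normalized CPM of each Gadd45 gene (log axis) in the 11 libraries, by group, with 1 point per library, its shape the replicate number, and a bar at the group mean. *Gadd45b* and *Gadd45g* after kainate lie above all sham points in both cell types, *Gadd45a* in glia alone, and *Gadd45gip1* in neither.

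Levels can be set between genes only per kilobase of exon. On that scale *Gadd45g* was the highest member in sham neurons, at 14.6 ± 7.12 CPM per kb (mean ± SD, n = 3), above *Gadd45b* at 6.73 ± 3.69, *Gadd45a* at 5.28 ± 1.84 and *Gadd45gip1* at 4.98 ± 2.85. The last 3 lay within an SD of each other. Sham glia gave the order *Gadd45g* at 9.09 ± 4.72 (n = 2), *Gadd45a* at 4.64 ± 2.71, *Gadd45b* at 4.23 ± 2.32 and *Gadd45gip1* at 3.38 ± 2.65, again with the last 3 within an SD. After kainate, *Gadd45g* at 70.8 ± 18.8 and *Gadd45b* at 38.5 ± 12.01 led in neurons (n = 3), followed by *Gadd45a* at 6.62 ± 0.85 and *Gadd45gip1* at 5.51 ± 1.57, which overlapped. In kainate glia the order was *Gadd45b* at 162 ± 146, *Gadd45g* at 82.3 ± 36.6, *Gadd45a* at 15.4 ± 5.12 and *Gadd45gip1* at 3.26 ± 1.34 (n = 3). The first place of *Gadd45b* there held within each kainate glia library, while the group means were not apart beyond the spread between libraries.

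The first comparison asked which members differed between kainate and sham neurons. *Gadd45g* was upregulated 4.88-fold, with a log2 fold change of 2.29 ± 0.47 (SE) and FDR 0.204 in edgeR's quasi-likelihood test with Benjamini-Hochberg adjustment. The threshold was the study's, FDR below 0.25. *Gadd45b* had a fold of 5.74 and a log2 fold change of 2.52 ± 0.62, with FDR 0.390, and missed the threshold in this fit. The study's own table, from a smaller set of tested genes, lists both *Gadd45b* and *Gadd45g* as upregulated in neurons. *Gadd45a* had a log2 fold change of 0.33 ± 0.41 and *Gadd45gip1* of 0.15 ± 0.52, both at FDR 1. Thus 1 of 4 members rose, where 0.157% of all genes did. The kainate libraries of 2 of 4, *Gadd45b* and *Gadd45g*, lay above all sham libraries, as for 4.26% of all genes.

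Same-numbered kainate and sham neuron libraries deviated together unevenly, with correlations over genes of 0.643, 0.161 and 0.491 for replicates 1, 2 and 3. No baseline from different-numbered libraries is given here, so these values do not establish the pairing by number. With the replicate number as a block, *Gadd45b* also rose in neurons, by 2.60 ± 0.21 on the log2 scale at FDR 1.39e-13. That fit has more terms and fewer residual degrees of freedom than the fit of group means. The block raised the share of all genes called higher from 0.157% to 3.19%. By number, the kainate to sham ratio of *Gadd45b* was 4.30, 6.57 and 7.93 for replicates 1, 2 and 3, and that of *Gadd45g* 2.86, 6.52 and 7.31. All 6 of these ratios were above 1. The ratios of *Gadd45a* were 0.852, 1.69 and 1.5, and those of *Gadd45gip1* 0.873, 1.68 and 1.15, on both sides of 1. The call of *Gadd45g* without the block ended without sham neurons 2 or 3, kainate neurons 1, 2 or 3, or kainate glia 2, at log2 fold changes of 2.02 to 2.43 and FDRs of 0.358 to 1. *Gadd45b* passed without either sham glia library or without kainate glia 1 or 3, at 2.51 to 2.52 and FDRs of 0.123 to 0.222. In a fit of the neurons alone, *Gadd45b* and *Gadd45g* both passed (FDR 0.0366 each), and 1.29% of all genes were called.

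The same question was asked in glia. *Gadd45b* was upregulated 38.3-fold, with a log2 fold change of 5.26 ± 0.85 at FDR 0.0763. *Gadd45g* was upregulated 9.06-fold, with a log2 fold change of 3.18 ± 0.58 at FDR 0.142. *Gadd45a* had a fold of 3.33 and a log2 fold change of 1.74 ± 0.49 at FDR 1, and did not pass. *Gadd45gip1* stood at -0.06 ± 0.59 and FDR 1. So 2 of 4 members rose, against 0.0933% of all genes, and 3 of 4 had kainate libraries above all sham libraries, against 4.7% of all genes.

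In a fit of the glia alone, the log2 fold changes were 5.29 for *Gadd45b* (FDR 0.762) and 3.22 for *Gadd45g* (FDR 0.913), so that both calls ended, and 0 genes in all were called. The study's methods state that cell types were analysed separately, while its tables list the same average abundance for a gene in both, so which of these fits is closer to the study's own is not settled here. With the replicate block, in which kainate glia replicate 2 has no sham partner and adds nothing, *Gadd45a* rose in glia too, by 1.87 ± 0.31 at FDR 3.84e-05, and 2.93% of all genes were called higher. For replicates 1 and 3, the kainate to sham ratio was 56.3 and 28.6 for *Gadd45b*, 9.91 and 9.14 for *Gadd45g*, 3.23 and 4.17 for *Gadd45a*, and 0.9 and 1.39 for *Gadd45gip1*. The size of the *Gadd45b* difference rested in part on kainate glia replicate 1, without which its log2 fold change was 4.08 at FDR 0.181. Without sham glia 1, which leaves 1 sham glia library, *Gadd45b* was at 5.99 and *Gadd45g* at 3.87, both at FDR 0.326 and no longer called. With each library left out, *Gadd45a* ranged from 1.23 without sham glia 3 to 2.53 without sham glia 1, and *Gadd45gip1* from -0.70 to 1.13 without the same libraries, neither called. The call of *Gadd45g* also ended without sham neurons 3, kainate neurons 2, or kainate glia 1 or 2, at log2 fold changes of 2.65 to 3.28 and FDRs of 0.259 to 0.407. Sham glia 1 and kainate glia 2 had an input of 0.05 ng amplified over 15 PCR cycles, where the other libraries had 1 ng and 10 cycles. Without both of these, *Gadd45b* was at 6.31 and *Gadd45g* at 3.96, both at FDR 0.615. The summed glial markers were at 33706, 15054 and 6388 CPM in kainate glia and at 49539 and 11463 in sham glia, which overlap, and their part in these values was not tested.

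**Figure D2:**
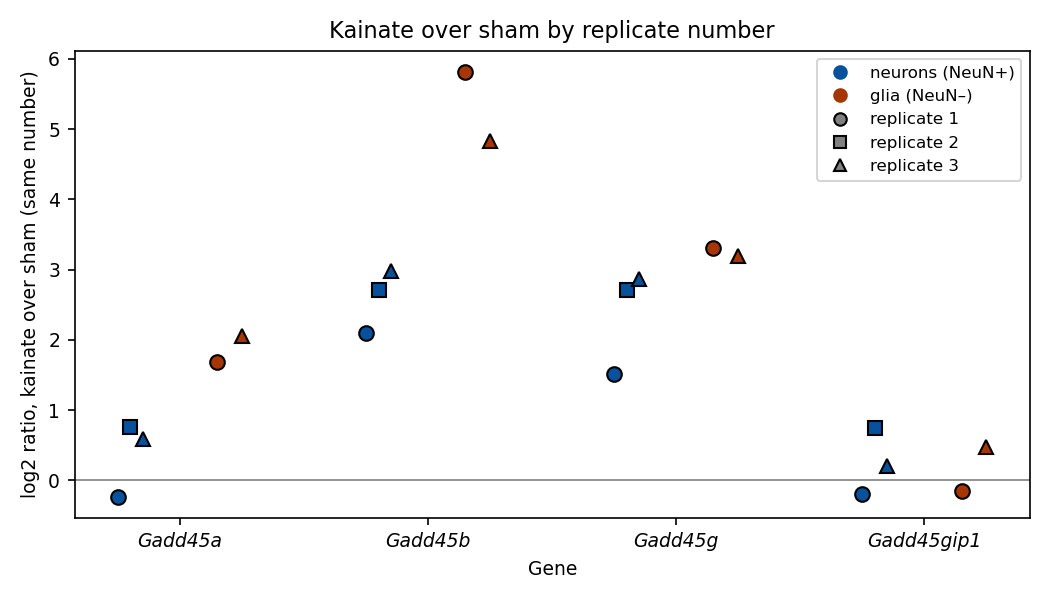
Log2 ratio of normalized CPM in kainate over sham libraries of the same replicate number, for each Gadd45 gene in neurons (3 pairs) and glia (2 pairs), with 1 point per pair and 0 marking equal levels. All *Gadd45b* and *Gadd45g* points lie above 0, the *Gadd45a* points do so in glia, and the *Gadd45gip1* points fall on both sides.

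A ratio of counts within a library needs no scaling between libraries, and *Gadd45gip1* serves as the denominator here. The ratio of *Gadd45b* to *Gadd45gip1* counts was 0.837, 0.773 and 0.986 in sham neurons and 4.12, 3.03 and 6.79 in kainate neurons. In glia it was 0.712 and 1.09 after saline and 44.5, 17.6 and 22.4 after kainate. Replicate 1 no longer led the sham libraries on this scale. The ratio of *Gadd45g* to *Gadd45gip1* was 1.28 to 1.65 in sham neurons, 4.19 to 10.5 in kainate neurons, 1.11 and 1.79 in sham glia and 11.4 to 12.2 in kainate glia. For *Gadd45a* it was 0.632 to 1.02 and 0.617 to 1.03 in sham and kainate neurons, and 0.883 and 1.28 in sham against 3.17 to 3.82 in kainate glia. The 3 kainate glia libraries were thus close to each other for *Gadd45g* and not for *Gadd45b*.

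Whether kainate acted differently on the cell types was tested as the difference of its log2 fold changes, neurons minus glia. This difference was -2.74 ± 0.92 for *Gadd45b*, -1.41 ± 0.62 for *Gadd45a*, -0.89 ± 0.68 for *Gadd45g* and 0.20 ± 0.78 for *Gadd45gip1*, each at FDR 1 in edgeR. No member passed, and 0.00246% of all genes did. At an unadjusted p under 0.05 there were 2, *Gadd45b* and *Gadd45a*, against 0.909% of all genes. DESeq2 called 0 members, and 0.0663% of all genes. With a block for the replicate number inside each cell type, *Gadd45b* at -2.74 ± 0.33 (FDR 1.90e-07) and *Gadd45a* at -1.49 ± 0.39 (FDR 0.0498) passed, where 1.94% of all genes did. With the pool as the block, they were at -2.75 (FDR 0.429) and -1.53 (FDR 1) and did not. The *Gadd45g* difference passed under neither block. Without a block and with each library left out, the difference ranged from -3.47 to -1.57 for *Gadd45b*, -2.19 to -0.89 for *Gadd45a*, -1.58 to -0.38 for *Gadd45g* and -0.98 to 0.85 for *Gadd45gip1*. The lowest values were those without sham glia 1, and the highest those without kainate glia 1 for *Gadd45b* and *Gadd45g* and without sham glia 3 for the other two.

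**Figure D3:**
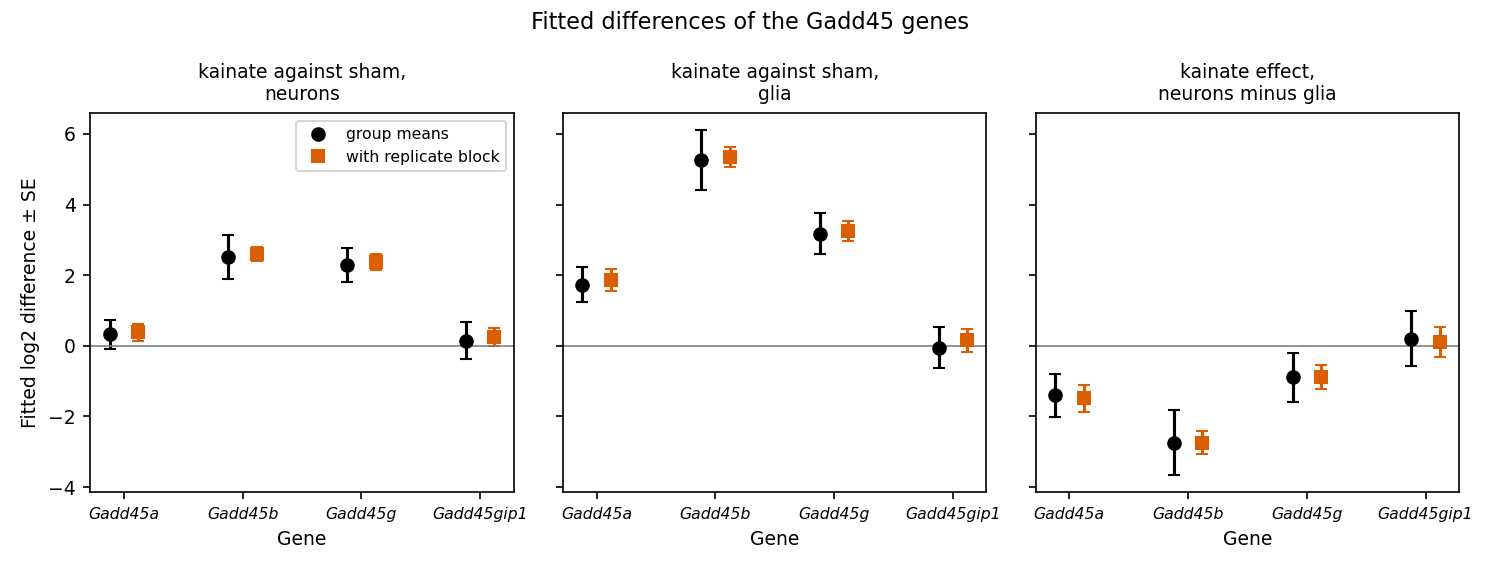
Fitted log2 differences with SE for the kainate effect in neurons, in glia, and for neurons minus glia, from edgeR with group means alone (circles) and with the replicate number as a block (squares). Estimates move little between the fits while the error bars shrink with the block, as for *Gadd45b* in neurons from 0.62 to 0.21.

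Between the fractions of saline mice, no member passed, against 16.7% of all genes. The NeuN+ minus NeuN– log2 difference was 0.18 ± 0.46 for *Gadd45a*, 0.67 ± 0.68 for *Gadd45b*, 0.68 ± 0.52 for *Gadd45g* and 0.56 ± 0.59 for *Gadd45gip1*, with FDRs of 0.607 to 0.883 in edgeR. At an unadjusted p under 0.05 there were 0, against 17.8% of all genes, and DESeq2 also called 0, against 21.2% of all genes. With each library left out, the difference ranged from -0.32 to 0.99 for *Gadd45a*, 0.14 to 1.41 for *Gadd45b*, 0.22 to 1.37 for *Gadd45g* and -0.08 to 1.75 for *Gadd45gip1*. The highest values were those without sham glia 1, and the lowest those without sham glia 3, or for *Gadd45b* without sham neurons 1. The sign was negative in 3 of 23 alternatives for *Gadd45a* and in 2 of 23 for *Gadd45gip1*. Within the 2 complete sham pools, all 4 genes were higher in NeuN+ nuclei, by ratios of 1.13 to 2.38. With the pool as a block, *Gadd45b* (0.99, FDR 0.140), *Gadd45g* (0.99, FDR 0.0994) and *Gadd45gip1* (0.94, FDR 0.0770) passed, in a fit that called 34% of all genes. The values of 1.37 for *Gadd45g* and 1.75 for *Gadd45gip1* without sham glia 1 rest on 1 sham glia library.

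After kainate *Gadd45b* and *Gadd45a* were lower in NeuN+ than in NeuN– nuclei. *Gadd45b* had a log2 difference of -2.07 ± 0.61 (FDR 0.0454), and *Gadd45a* of -1.22 ± 0.41 (FDR 0.0858). For *Gadd45g* the difference was -0.22 ± 0.45 (FDR 0.792) and for *Gadd45gip1* 0.76 ± 0.53 (FDR 0.449). Thus 2 of 4 members were lower in NeuN+ nuclei, against 9.39% of all genes, and for the same 2 all NeuN+ libraries lay below all NeuN– libraries, against 16.4% of all genes. Without kainate glia replicate 1, both calls ended, with -0.96 for *Gadd45b* (FDR 0.288) and -0.88 for *Gadd45a* (FDR 0.287). With each library left out, *Gadd45g* ranged from -0.59 without kainate glia 3 to 0.25 without kainate glia 1, and *Gadd45gip1* from 0.37 to 1.15 without the same libraries, neither called. With the pool as a block, which called 49.3% of all genes in either direction, both still passed, and *Gadd45gip1* was called higher in NeuN+ nuclei at 0.80 (FDR 0.0517).

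The NeuN+ libraries held glial markers at low levels, and the members' shares were set beside theirs. The summed glial markers in NeuN+ nuclei stood at 1.62, 5.66 and 15.6% of their level in the NeuN– nuclei of kainate pools 1, 2 and 3. *Gadd45b* stood at 14.1, 30.5 and 59.6%, and *Gadd45a* at 29.7, 55.1 and 52.5%. In each kainate pool both shares were above that of the glial sum, most of which came from the oligodendrocyte markers in the NeuN– libraries. The 6 astrocyte markers alone stood at 8.07, 21.7 and 65.6%, which in pool 3 is above *Gadd45b* and *Gadd45a*. The microglia markers stood at 4.19, 7.30 and 12.4%. *Gadd45g* stood at 52.2, 78.8 and 175%, and *Gadd45gip1* at 153, 177 and 196%. Both were above the astrocyte share in every kainate pool. In sham pools 1 and 3, the glial sum stood at 1.17 and 7.28% and the astrocyte markers at 5.67 and 22.4%. Within the NeuN+ libraries, the 6 astrocyte markers summed to 252 to 410 CPM after kainate and 170 to 234 after saline, which did not overlap, and the 6 microglia markers to 63 to 67.6 and 41.2 to 64.7. Their part in the neuronal values of *Gadd45b* and *Gadd45g* was not tested.

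**Figure D4:**
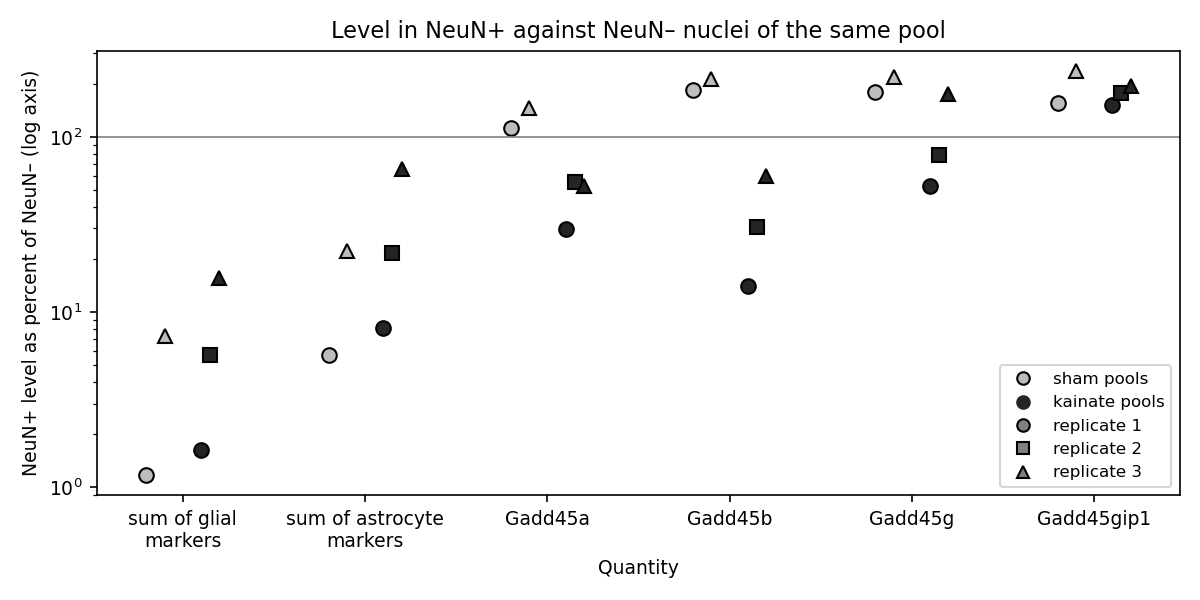
Level in NeuN+ nuclei as a percent of that in NeuN– nuclei of the same pool (log axis), for the sums of 23 glial and of 6 astrocyte markers and for each Gadd45 gene, with 1 point per pool and a line at equal levels. Sham points of all 4 genes lie above the line, kainate points of *Gadd45a* and *Gadd45b* lie under it, and in kainate pool 3 the astrocyte markers (65.6%) lie above *Gadd45a* and *Gadd45b*.

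Beyond the family, lists of genes tied to Gadd45 function held no gene called in either kainate comparison of the fit of group means (edgeR, the other tool not run on them). The study's own tables, from a smaller set of tested genes, list *Cdkn1a*, *Btg2* and *Bdnf* as upregulated in neurons. They list *Tet1* as downregulated in glia. For the counts below, an unadjusted p under 0.05 was found in 2.09% of all genes in neurons and 2.05% in glia. The replicate block called 3.19% of all genes higher and 1.9% lower in neurons, and 2.93% higher and 2.86% lower in glia. Of 6 binding partners, *Cdkn1a*, which encodes the cell cycle inhibitor p21, came closest and was the 1 partner at an unadjusted p under 0.05, with log2 fold changes of 2.50 ± 0.68 in neurons (FDR 0.588) and 2.00 ± 0.77 in glia (FDR 1). It passed with the replicate block, at FDR 4.82e-13 and 1.05e-10. *Map3k4*, the kinase that Gadd45 proteins activate, was at -0.61 ± 0.33 in neurons (FDR 1) and also passed there with the block, as lower (FDR 0.0557). With the block, 1 partner was called higher and 1 lower in neurons, and 1 higher in glia. The median over the partners was -0.02 in neurons and -0.19 in glia, beside -0.02 and 0.02 over all genes tested.

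Of 11 p38 and JNK pathway kinases, the smallest p-values were those of *Mapkapk2*, a substrate kinase of p38, and *Map2k3*, which activates p38. *Mapkapk2* had log2 fold changes of 1.10 ± 0.34 in neurons (FDR 0.895) and 1.02 ± 0.38 in glia (FDR 1). *Map2k3* was at 0.84 ± 0.36 and 1.00 ± 0.41. With the block 4 of the 11 were called higher in neurons and 3 in glia, none lower, and both of these genes were among them in each cell type. At an unadjusted p under 0.05 there were likewise 4 and 3. The list median was 0.04 in neurons and 0.12 in glia.

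A list of 18 genes held *Trp53*, which encodes p53 itself, and targets of p53 other than the family and *Cdkn1a*, which is given above. Of these, *Btg2*, an antiproliferative and activity-induced gene, was at 1.81 ± 0.53 in neurons (FDR 0.768). *Plk2* and *Plk3*, polo-like kinases, followed at 1.16 ± 0.40 and 1.09 ± 0.48, both at FDR 1. In glia *Aen*, a nuclease of apoptosis, was at 1.28 ± 0.34 (FDR 0.823), *Plk2* at 1.26 ± 0.46 and *Sesn2*, a stress-induced sestrin, at 1.18 ± 0.47, the latter both at FDR 1. With the block 4 of the 18 were higher and 2 lower in neurons, and 6 higher and 0 lower in glia. Without it 3 in each cell type had an unadjusted p under 0.05, and the list median was 0.13 in neurons and 0.29 in glia.

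Of 14 genes of DNA demethylation and repair, *Tet3*, which oxidizes methylated cytosine, was at 0.89 ± 0.33 in neurons (FDR 1), and *Tet1*, of the same enzyme family, at -1.24 ± 0.36 in glia (FDR 1). They were the 1 gene of the list at an unadjusted p under 0.05 in each cell type, and the 2 that passed with the block, *Tet3* as higher in neurons (FDR 0.000514) and *Tet1* as lower in glia (FDR 0.000592). *Bdnf*, a neurotrophin whose promoter is linked to Gadd45b, was at 1.75 ± 0.49 in neurons (FDR 0.622; 4.41e-10 with the block) and 1.84 ± 0.57 in glia (FDR 1; 6.71e-08 with the block). *Fgf1*, the other such locus, was at 0.02 ± 0.52 and -0.91 ± 0.57, with FDR 1 in both and 0.0812 with the block in glia, as lower.

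The list of large mitochondrial ribosomal subunit genes, 28 beside *Gadd45gip1* and with the inner-membrane insertase *Oxa1l* among them, held none at an unadjusted p under 0.05 in either cell type. Their median log2 fold change was 0.15 in neurons and -0.02 in glia, beside the 0.15 and -0.06 of *Gadd45gip1* itself, the latter of which moved to 1.13 without sham glia 1. With the block 1 of the 28, *Mrpl18*, was called higher in glia, at 0.76 (FDR 0.203).

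**Figure D5:**
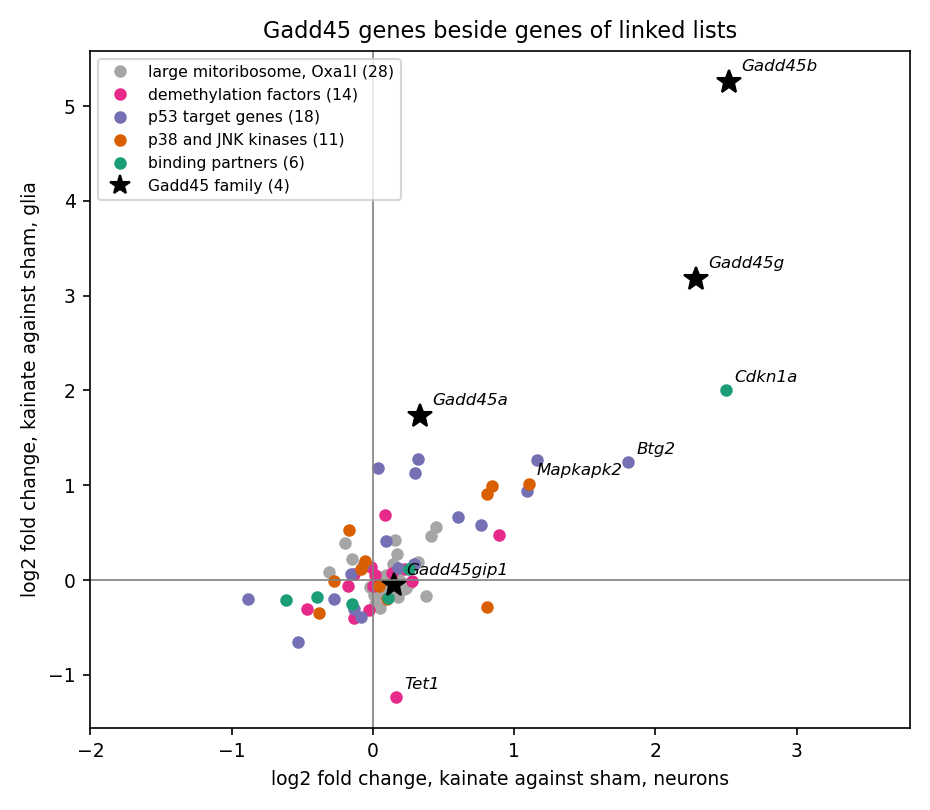
Log2 fold changes of kainate against sham in neurons (x) and glia (y) for the 4 Gadd45 genes (stars) and the genes of 5 lists (points, with the number in each list). *Gadd45b* at 2.52 and 5.26 and *Gadd45g* at 2.29 and 3.18 lie farthest up, and *Cdkn1a* at 2.50 and 2.00 is the listed gene nearest to them.

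Across the 11 libraries, log2 CPM of *Gadd45b* and *Gadd45g* had a Pearson r of 0.951, *Gadd45a* and *Gadd45b* of 0.892, *Gadd45a* and *Gadd45g* of 0.790, and *Gadd45gip1* with the other 3 of 0.200 to 0.341. These r describe libraries that share treatment, cell type, pool and scaling. Among 23237 genes, those most like *Gadd45b* were *Serpina3n*, a serine protease inhibitor (r = 0.966), *Timp1*, an inhibitor of metalloproteinases (0.958), and *Ier2*, an immediate early gene (0.958). Most like *Gadd45g* were *Kdm6b*, a histone demethylase (0.973), *Ier2* (0.969) and *Junb*, an AP-1 subunit (0.965). *Gadd45a* was nearest to *Slc39a14*, a zinc and iron transporter (0.977), *Ftsj3* (0.961) and *Gm4737* (0.953). *Gadd45gip1* was nearest to *Gm2606* (0.991), *Eloc*, which encodes elongin C (0.989), and *Fibp* (0.989).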

How the data were processed

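The mRNA libraries of 11 sorted nuclear samples were used. Per the labels and the study's methods, the authors amplified RNA with SMART-Seq v4, trimmed reads with Trim Galore 0.4.3, aligned them to mm10 by Rsubread, and took gene counts of uniquely mapped reads from featureCounts and GENCODE M16. The study's methods describe sequencing pools run on different instruments, as single or as paired reads. The sources used here do not give the instrument of each library, so whether replicate numbers follow it cannot be told. The deposited values are raw counts, with no normalization, of 53379 genes. The labels' extraction text names right hippocampi where the series' design and methods name left, and left is used here. Bisulfite samples were not analysed here. Columns of samples outside the labels numbered 0. Members and lists were chosen with earlier results of these data known.

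Genes lacking a symbol (105) were dropped, and filterByExpr (minimum count 10, minimum total 15) kept 40714. Counts were scaled by TMM and fitted by edgeR 4.0.16 (R 4.3.3, limma 3.58.1, glmQLFit with legacy=TRUE) to 4 group means, with glmQLFTest and Benjamini-Hochberg adjustment over all genes tested (FDR). The 4 groups share 1 estimate of the spread, with a common biological coefficient of variation of 0.600, 7 residual and 6.76 prior degrees of freedom. These values belong to the fit of group means, and the fits with a block have more terms and fewer residual degrees of freedom. Library totals of 12058875 to 45428465 counts set the counting precision, and the number of pools limits it further. Exon lengths are those of GENCODE M21 on the same build, and promoter windows those of RefSeq, matched to 3 of the 4 genes and checked against the genome sequence.

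Named genes were the 4 members throughout, of each list the genes called in a kainate comparison and otherwise up to 3 with the smallest unadjusted p, and the 3 genes with the highest Pearson r to a member among those with a mean log2 CPM of at least 0 (prior count 2). *E230016M11Rik* was named for its overlap with *Gadd45a*. A further result on overlapping genes is not reported here.

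Replicate numbers were checked as pairs by the correlation, over genes, of deviations from the group means. It was 0.643, 0.161 and 0.491 for same-numbered kainate and sham neurons, and 0.760 and 0.787 for glia. The sham glia libraries are so few that their deviations from the group mean mirror each other. The glial values are therefore not separate checks, and the pairing by number is not established. Fractions of 1 pool come from the same mice, with 0.240 to 0.571 in kainate and 0.547 and 0.668 in sham pools. Alternatives were DESeq2 1.42.0 size factors or its Wald test, no filter or 1 CPM in 3 libraries, all genes whether named or not, cell types fitted separately (as the study's methods state; the fit used here was joint), a robust fit, the newer quasi-likelihood method, a stricter FDR of 0.05, blocks by number or pool, low input as a covariate or left out, replicate 1 left out, and each library left out.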

Additional observations from a re-analysis of the deposited data

Results flagged for a closer look

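The difference of the kainate effect between neurons and glia passed for 2 genes in the fit with the replicate number as a block, and for none in the fit of group means. The block called 1.94% of all genes and the group means 0.00246%. The difference was -2.74 ± 0.33 on the log2 scale for *Gadd45b* (FDR 1.90e-07) and -1.49 ± 0.39 for *Gadd45a* (FDR 0.0498, edgeR), so the fitted fold change was larger in glia. This block holds 3 pairs of kainate and sham libraries in neurons and 2 in glia. With the pool as the block, neither passed.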

How the results depend on the processing

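No call turned its direction under any alternative. The precision rests on 2 sham glia libraries, 3 pools in each other group, and low-input amplification in 2 glia libraries.

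In neurons, *Gadd45b* passed with a filter of 1 CPM in 3 libraries (2.52, FDR 0.237), the newer quasi-likelihood method (2.56, 0.243), a separate fit (2.57, 0.0366), the replicate block (2.60, 1.39e-13), all libraries of number 1 left out (2.81, 1.19e-08) and DESeq2 (2.54, 0.00828), where 2 members were called in place of 1. Over all genes, these settings called 0.468, 0.344, 1.29, 5.09, 2.28 and 0.815%, in this order, against 0.165% in the fit of group means. *Gadd45g* lost its call at FDR below 0.05 (2.29) and with low input as a covariate (2.29, 0.318), leaving 0 called, where 0.0196% and 0.101% of all genes were. With each library left out, *Gadd45b* ranged from 2.23 to 3.05, *Gadd45g* from 2.02 to 2.74, and members called from 0 to 2.

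In glia, the call ended at FDR below 0.05 for *Gadd45b* (5.26) and *Gadd45g* (3.18), in a separate fit (5.29, FDR 0.762 and 3.22, 0.913) and without both low-input libraries (6.31 and 3.96, both 0.615), each leaving 0 of the 2 members called. Over all genes, these settings called 0.00246, 0 and 0.00226%, against 0.101% in the fit of group means. Low input as a covariate ended that of *Gadd45g* (3.30, 0.285), leaving 1 (0.054% of all genes). *Gadd45a* passed with the replicate block (1.87, 3.84e-05), without number 1 (2.22, 0.00328) and with DESeq2 (1.64, 0.0870), where 5.79, 1.08 and 0.575% of all genes were called. With each library left out, *Gadd45b* ranged from 4.08 to 5.99, *Gadd45g* from 2.65 to 3.87, and members called from 0 to 2.

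For the difference between cell types, the replicate block called 2 members in place of 0, *Gadd45a* (-1.49) and *Gadd45b* (-2.74), and 1.94% of all genes in place of 0.00246%. For NeuN+ against NeuN– nuclei, members called in sham went from 0 to 3 with the replicate block by pool (34% of all genes), 1 without the low-input libraries (18%) and 4 without number 1 (42.8%). After kainate they went from 2 to 1 at FDR below 0.05 (10.1%), and to 3 with the pool block (49.3%) and without number 1 (47.4%), where *Gadd45gip1* passed at 0.96 (FDR 0.0372). With each library left out, they ranged from 0 to 2 in both. For the 4 members, paired fits changed no other call beside those given here and in the report. Over 24 alternatives, FDRs ran from 1.39e-13 to 1 for *Gadd45b* and 1.01e-11 to 1 for *Gadd45g* in neurons, from 1.06e-19 to 0.762, 1.27e-12 to 0.913 and 3.84e-05 to 1 for *Gadd45b*, *Gadd45g* and *Gadd45a* in glia, and from 1.90e-07 to 1 and 0.0498 to 1 for the differences of *Gadd45b* and *Gadd45a*. The causes were not tested. The sign of *Gadd45gip1*, never called in the kainate comparisons, differed in 3 of 24 alternatives in neurons and 7 of 24 in glia.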
